A study of Mus musculus with 15 samples.

Results

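The tissue inhibitors of metalloproteinases (TIMPs) and 4 of the matrix metalloproteinases they restrain were followed in the heart apex of 3 kinds of male mice. The 8 genes, Timp1, Timp2, Timp3, Timp4, Mmp2, Mmp3, Mmp9 and Mmp14, were taken by name, with every probe set whose only annotated symbol is one of them. They had 21 of the 34940 probe sets with 1 gene symbol, and the array covered 18190 genes in all. The groups were B6C3F1, the first-generation cross of the other two, C3H (C3H/HeJ) and C57Bl/6 (C57BL/6J), with 5 arrays each. All mice were 9 to 10 weeks old and had carried an abdominal telemetry transmitter, put in under anaesthesia at 7 weeks, and no group had any other treatment. Each array held amplified RNA of a whole piece of apex, so that fewer cells of a type and less RNA per cell cannot be told apart.

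Matrix metalloproteinases are zinc-dependent enzymes that cut collagens, laminin, fibronectin and other proteins of the extracellular matrix. They are made as inactive precursors, and TIMPs block the active enzymes by binding their catalytic site. In the heart the balance of these enzymes and inhibitors is known for its part in scar formation, wall thinning and dilation after injury. None of the values here measure enzyme activity or protein.

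The sequences just upstream of Timp1, Timp3 and Mmp3 are shown because Timp1 and Timp3 are the inhibitors that passed the test between strains, and Mmp3 is the member whose upstream sequence held both an AP-1 site and a TATA box. Each is the 250 bases before the annotated start in the C57BL/6J reference (RefSeq, GRCm38.p6), on the plus strand, at chrX:20869916-20870165, chr10:86300162-86300411 and chr9:7445572-7445821 in that order. Capitals mark an Sp1 GC box (GGGCGG or its complement CCGCCC), an AP-1 site (TGANTCA) or a TATA box (TATAAA). Variants that C3H may carry there are not in these sequences.
Timp1: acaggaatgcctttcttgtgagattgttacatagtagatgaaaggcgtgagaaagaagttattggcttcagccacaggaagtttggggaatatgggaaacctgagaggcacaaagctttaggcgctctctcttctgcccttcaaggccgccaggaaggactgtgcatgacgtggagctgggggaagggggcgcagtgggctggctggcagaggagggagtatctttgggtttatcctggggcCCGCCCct
Timp3: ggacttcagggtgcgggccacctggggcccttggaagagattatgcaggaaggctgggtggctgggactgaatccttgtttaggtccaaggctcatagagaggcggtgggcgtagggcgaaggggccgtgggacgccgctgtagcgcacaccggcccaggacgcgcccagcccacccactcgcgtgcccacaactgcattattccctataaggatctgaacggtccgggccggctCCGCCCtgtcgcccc
Mmp3: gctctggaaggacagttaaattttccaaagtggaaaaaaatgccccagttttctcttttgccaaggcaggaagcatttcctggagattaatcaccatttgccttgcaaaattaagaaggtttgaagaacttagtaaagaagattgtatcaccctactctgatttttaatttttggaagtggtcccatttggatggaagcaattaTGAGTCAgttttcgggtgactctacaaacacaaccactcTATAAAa
The Timp1 GC box lay 8 to 3 bases before the start and that of Timp3 15 to 10 bases before it. In Mmp3 the AP-1 site, the motif bound by Jun and Fos proteins, lay 46 to 40 bases before the start and the TATA box 7 to 2 bases before it. Promoters of 6 of the 8 genes were in the RefSeq table. Timp2 and Mmp14 also held the GC box, and Timp4 held none of the 3 motifs in this window. Both strands were searched, and a match is a description and not evidence of binding. Over the same window of 32841 mouse promoters, 32.7% held the GC box, 6.75% the AP-1 site and 12.4% the TATA box.

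The deposited values were MAS5 signals on a log2 scale, and all levels below are log2(signal + 16), on which differences of dim genes are understated. On the linear scale the 2% trimmed mean signal lay between 500.257 and 500.276 on all 15 arrays, and 0 arrays repeated another. Along the first principal component, with 23.4% of the variance, the strains separated, with B6C3F1 arrays at -1.29 to 5.91, C3H arrays at -35.4 to -25.3 and C57Bl/6 arrays at 23.6 to 29.1. The poly-A control RNAs added at labelling averaged 8.70 ± 0.15 on B6C3F1 arrays, 9.34 ± 0.64 on C3H arrays and 8.69 ± 0.60 on C57Bl/6 arrays (mean log2, SD, n = 5). C3H replicate 4 stood apart at 10.48 and C57Bl/6 replicate 5 at 7.66. The log2 ratio of the 3 prime to the 5 prime Gapdh probe sets was 0.90 ± 0.21 in B6C3F1, 0.60 ± 0.26 in C3H and 0.85 ± 0.24 in C57Bl/6. The labels number the samples strain by strain, so handling order and strain cannot be told apart. The number of arrays limits the precision of every value.

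All 8 genes lay above the cut for dim probe sets, as did 18 of their 21 probe sets. The probe set with the highest mean stood for its gene, which was tested with limma among 13107 genes, and a gene passed at a Benjamini-Hochberg adjusted p under 0.05. Timp1 and Timp3 were higher in C3H than in C57Bl/6, 2 of 8 members against a background of 7.26% of all genes that were higher, and 0 members were lower (background 8.4%). In B6C3F1 against C57Bl/6, Timp1 alone was higher, 1 of 8 against a background of 2.06%, and 0 were lower (background 1.77%). In B6C3F1 against C3H, Timp3 alone was lower, 1 of 8 against a background of 2.62%, and 0 were higher (background 3.59%). Against the midparent, which is the average of the C3H and C57Bl/6 means, 0 of 8 members passed in limma, where 0.633% of all genes did. Timp1 (0.51), Timp3 (-0.37) and Mmp3 (-0.41) had an unadjusted p under 0.05 there, as did 14.7% of all genes.

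**Figure D1:**
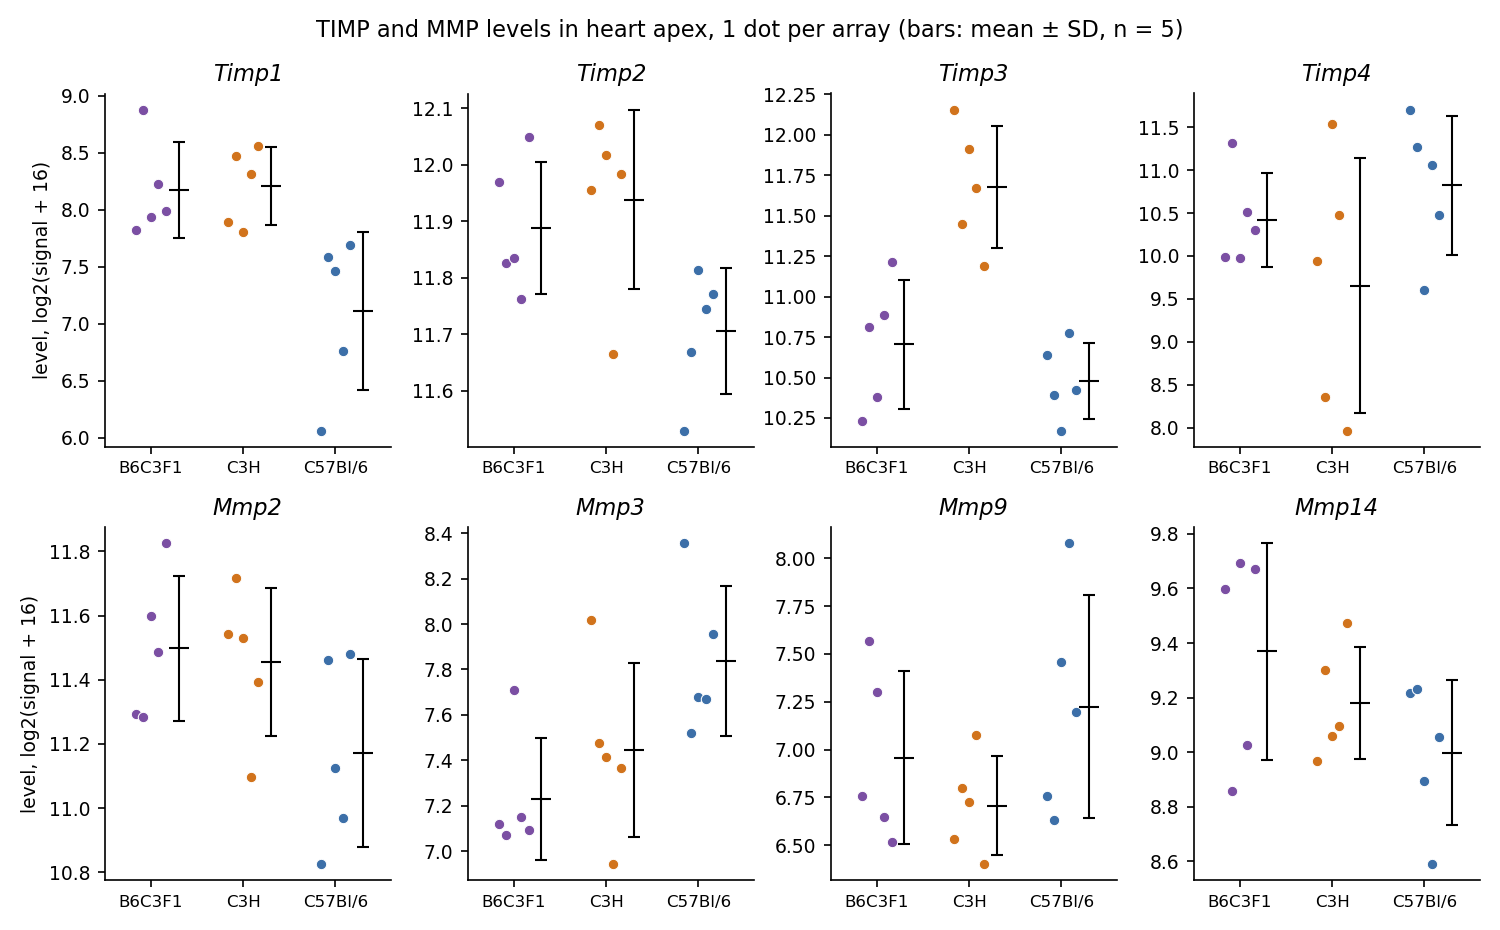
Level of each of the 8 genes as log2(signal + 16) on the vertical axis, with 1 dot per array for B6C3F1, C3H and C57Bl/6 and a bar for the mean ± SD (n = 5); each panel has its own scale. Timp1 lies apart from C57Bl/6 in both other groups, Timp3 is highest in C3H, and the Timp4 dots spread widely, from 7.96 to 11.54 in C3H.

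The median difference of the 8 members was 0.21 in C3H minus C57Bl/6, beside -0.02 over all genes tested. It was 0.20 in B6C3F1 minus C57Bl/6 (0.01 over all genes), 0.00 in B6C3F1 minus C3H (0.03) and 0.12 in B6C3F1 minus midparent (0.03). The arrays of the groups did not overlap for 2 members in C3H against C57Bl/6 (background 11.2% of genes), for 1 member in B6C3F1 against C57Bl/6 (6.16%) and for 0 members in B6C3F1 against C3H (6.4%). The comparisons share arrays, so their values stand side by side and are not independent of each other.

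**Figure D2:**
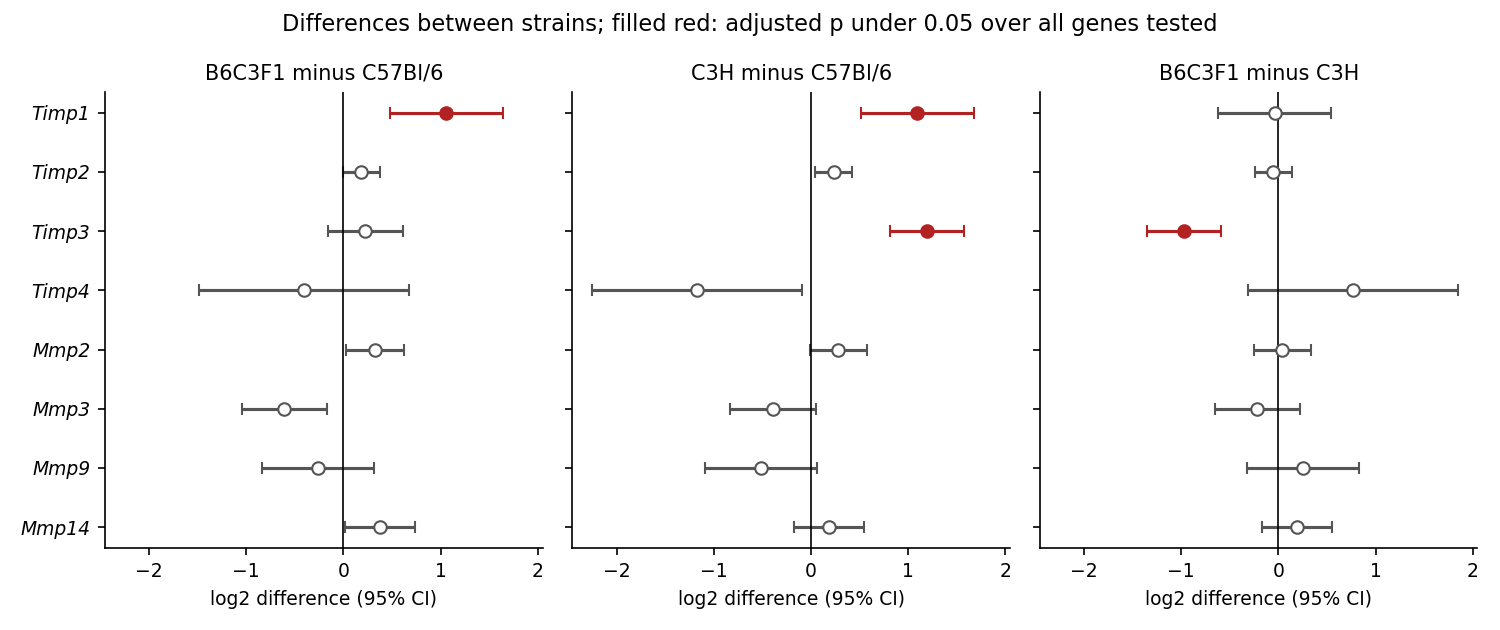
Log2 difference of each gene with its 95% confidence interval (horizontal axis) in B6C3F1 minus C57Bl/6, C3H minus C57Bl/6 and B6C3F1 minus C3H; filled red marks an adjusted p under 0.05 over all genes. The red points are Timp1 at 1.06 and 1.09 against C57Bl/6, and Timp3 at 1.20 in C3H minus C57Bl/6 and -0.97 in B6C3F1 minus C3H.

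Among the inhibitors, Timp1, a secreted TIMP that responds to inflammatory and growth signals in many tissues, was higher in both B6C3F1 and C3H than in C57Bl/6. Its 1 probe set (1460227_at) read 7.83, 8.88, 7.94, 8.22 and 7.99 on the B6C3F1 arrays, a mean of 8.17 ± 0.42 (SD, n = 5). It read 7.89, 8.47, 7.80, 8.31 and 8.56 on the C3H arrays (8.21 ± 0.34). On the C57Bl/6 arrays it read 6.06, 7.58, 7.46, 6.76 and 7.69 (7.11 ± 0.69). Every B6C3F1 and C3H array thus lay above every C57Bl/6 array, and C57Bl/6 replicates 1 and 4 were the lowest of all. Timp1 was higher in C3H than in C57Bl/6 by 1.09 ± 0.28 (SE), or 2.14-fold, with an adjusted p of 0.00948. Without C3H replicate 4 it stood at 1.07 (adjusted p = 0.0238) and without C57Bl/6 replicate 5 at 1.24 (0.00575), the arrays with unusual poly-A signal. In B6C3F1 it was higher than in C57Bl/6 by 1.06 ± 0.28, or 2.08-fold, with an adjusted p of 0.0379. That second call was lost when any of B6C3F1 replicates 1 to 4 or C57Bl/6 replicates 1, 3 or 4 was left out, with adjusted p between 0.0511 and 0.111 and differences of 0.80 to 1.15. B6C3F1 and C3H were not told apart for Timp1 (-0.04, 95% interval -0.62 to 0.55, adjusted p = 0.967).

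Timp1 lies on the X chromosome, within Syn1, which encodes a synapsin of nerve endings. By the usual naming of the cross the mother of B6C3F1 mice is C57BL/6, so that the males carry her X chromosome. Syn1 was near the dim cut and did not pass in any comparison (0.42 in C3H minus C57Bl/6, adjusted p = 0.601). The 3 genes whose levels ran most like Timp1 over the 15 arrays were Dynll1 (Pearson r 0.90), Ndn (0.90) and Myl1 (0.89), and r was 0.81, 0.77 and 0.77 over deviations from the strain means. These values describe 15 shared arrays and carry no test.

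Timp2, the inhibitor that also helps Mmp14 to activate Mmp2 at the cell surface, varied least between mice of a strain by its leading probe set. Its leading probe set (1433662_s_at) read 11.97, 11.83, 11.83, 11.76 and 12.05 on the B6C3F1 arrays and 11.96, 12.07, 12.02, 11.66 and 11.98 on the C3H arrays, against 11.53, 11.67, 11.81, 11.75 and 11.77 on the C57Bl/6 arrays. C57Bl/6 sat low in the range but the groups overlapped. The difference was 0.23 ± 0.09 (SE) in C3H minus C57Bl/6, with an adjusted p of 0.0968, and 0.18 in B6C3F1 minus C57Bl/6 (adjusted p = 0.269). Without C3H replicate 4, the array with the bright poly-A controls, it was 0.30 in C3H minus C57Bl/6, which passed (adjusted p = 0.0266).

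A second Timp2 probe set differed more. Set 1460287_at read 11.69, 11.77, 11.48, 11.53 and 11.13 on B6C3F1 arrays, 11.01, 11.82, 11.65, 11.43 and 11.89 on C3H arrays and 10.71, 11.36, 10.99, 10.78 and 11.11 on C57Bl/6 arrays. C3H replicate 1 lay within the C57Bl/6 range, while 4 of 5 C3H arrays lay above all C57Bl/6 arrays. Tested among 23037 probe sets, it was higher in C3H than in C57Bl/6 by 0.57 ± 0.16 (SE), or 1.48-fold (adjusted p = 0.0206). In B6C3F1 minus C57Bl/6 it stood at 0.53 (adjusted p = 0.0746). The other 3 tested Timp2 sets were at 0.08, 0.11 and -0.02 in C3H minus C57Bl/6, and none of them passed in limma. A sixth set, 1437081_at, was dim, with means of 4.61 in B6C3F1, 4.91 in C3H and 4.61 in C57Bl/6.

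Timp3, the TIMP that stays bound to the matrix and also inhibits ADAM17 and several ADAMTS enzymes, was highest in C3H. Its leading probe set (1449335_at) read 10.23, 10.81, 10.38, 10.89 and 11.21 on B6C3F1 arrays (10.70 ± 0.40, SD, n = 5). It read 12.15, 11.45, 11.91, 11.67 and 11.19 on C3H arrays (11.68 ± 0.38) and 10.64, 10.39, 10.17, 10.78 and 10.42 on C57Bl/6 arrays (10.48 ± 0.23). Every C3H array lay above every C57Bl/6 array, and B6C3F1 replicate 5, at 11.21, reached just past the lowest C3H array. Timp3 was higher in C3H than in C57Bl/6 by 1.20 ± 0.18 (SE), or 2.29-fold, with an adjusted p of 0.000102, and stood at 1.20 without C3H replicate 4 and 1.18 without C57Bl/6 replicate 5. In B6C3F1 it was lower than in C3H by 1.96-fold (-0.97 ± 0.18, adjusted p = 0.00259). B6C3F1 and C57Bl/6 were not told apart (0.22, 95% interval -0.16 to 0.61, adjusted p = 0.527).

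The other 3 Timp3 probe sets moved less than the leading one. In C3H minus C57Bl/6, set 1419089_at stood at 0.46 (adjusted p = 0.172), 1419088_at at 0.43 (0.248) and 1449334_at at -0.06 (0.933). The same sets stood at -0.46, -0.34 and -0.27 in B6C3F1 minus C3H, and none passed. With Timp3 as the mean of its 4 sets, a setting added after the data were seen, the difference was 0.51 in C3H minus C57Bl/6 (adjusted p = 0.112) and -0.51 in B6C3F1 minus C3H (adjusted p = 0.176), so both calls rest on set 1449335_at.

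The log2 ratio of set 1449335_at to the mean of the other 3, taken within each array and chosen after the values were seen, separated all 3 groups. It was 1.89, 2.01, 1.92, 2.07 and 2.26 in B6C3F1 (2.03 ± 0.15, SD, n = 5), 2.56, 2.62, 2.55, 2.40 and 3.10 in C3H (2.65 ± 0.27), and 1.79, 1.85, 1.40, 1.73 and 1.86 in C57Bl/6 (1.73 ± 0.19). No array of one group lay within the range of another, and B6C3F1 lay between its parents. Of single genes, 11.2% did not overlap between C3H and C57Bl/6, 6.16% between B6C3F1 and C57Bl/6 and 6.4% between B6C3F1 and C3H. The share among such ratios of other genes was not computed. The difference in ratio was 0.92 in C3H minus C57Bl/6, 0.30 in B6C3F1 minus C57Bl/6 and -0.62 in B6C3F1 minus C3H. Since the ratio was chosen for these values, they are given with no test. Whether transcript ends or probe sequence differ between the strains was not tested.

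**Figure D3:**
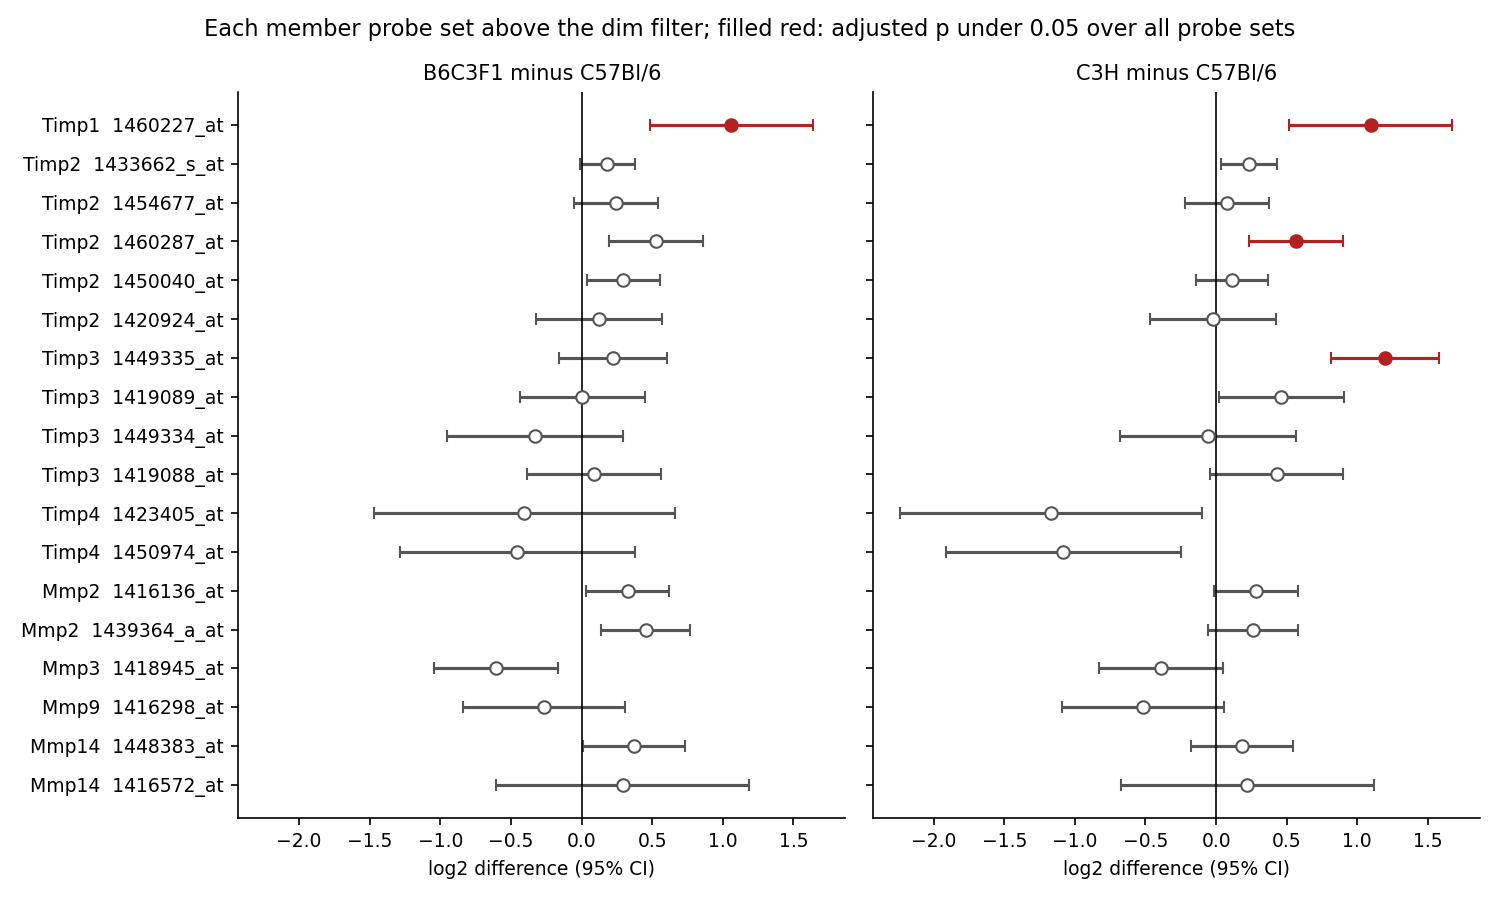
Log2 difference with its 95% confidence interval (horizontal axis) of each of the 18 member probe sets above the dim cut, in B6C3F1 minus C57Bl/6 and C3H minus C57Bl/6; filled red marks an adjusted p under 0.05 over all probe sets. In C3H minus C57Bl/6 the red sets are the 1 Timp1 set, 1 of 5 Timp2 sets at 0.57 and 1 of 4 Timp3 sets at 1.20.

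Among the 18 tested member probe sets, 3 were higher in C3H than in C57Bl/6 (background 6.17% of all probe sets), and 1 was higher in B6C3F1 than in C57Bl/6 (background 1.71%). In B6C3F1 against C3H, 1 was lower (background 2.05%). Timp3 lies within Syn3, another synapsin gene, which did not pass in any comparison (0.40 in C3H minus C57Bl/6, adjusted p = 0.544). The 3 genes that ran most like Timp3 over the 15 arrays were Xpr1 (r 0.95), Cd47 (0.94) and Wee1 (0.93), with r of 0.81, 0.75 and 0.92 over deviations from the strain means.

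Timp4, the TIMP known for its high level in heart, varied most between mice. Its leading probe set (1423405_at) read 9.98, 11.32, 9.98, 10.51 and 10.30 on B6C3F1 arrays, 9.94, 8.35, 11.54, 10.48 and 7.96 on C3H arrays and 11.71, 11.27, 9.61, 11.06 and 10.48 on C57Bl/6 arrays. The C3H arrays covered most of the range, with replicates 2 and 5 below every other array and replicate 3 near the top. The difference in C3H minus C57Bl/6 was -1.17 ± 0.52 (SE), with an adjusted p of 0.143, and it passed without C3H replicate 3 (-1.64, adjusted p = 0.0215). Without C3H replicate 5 it was -0.75 (adjusted p = 0.334), so that with 1 array left out it ran from -1.64 to -0.75. B6C3F1 minus C57Bl/6 was -0.41 (95% interval -1.49 to 0.68) and B6C3F1 minus C3H was 0.76 (-0.32 to 1.84), neither past the threshold.

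The second Timp4 probe set (1450974_at) read 7.55, 8.19, 7.55, 7.54 and 7.45 on B6C3F1 arrays, 6.55, 5.41, 8.59, 7.59 and 7.01 on C3H arrays and 8.63, 8.31, 7.20, 8.29 and 8.12 on C57Bl/6 arrays. C3H replicate 3 was again the highest C3H array, and C57Bl/6 replicate 3 again the lowest of its strain. The difference in C3H minus C57Bl/6 was -1.08 (adjusted p = 0.0817). Timp4 lies within Syn2, the remaining synapsin gene, which did not pass (-0.12, adjusted p = 0.839). The next annotated gene on one side is Pparg, a regulator of fat cells, and the fat cell marker Adipoq was dim on these arrays, with 5.40 to 6.25 in B6C3F1, 4.27 to 5.25 in C3H and 5.08 to 6.54 in C57Bl/6.

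The SD of Timp4 between mice of a strain, pooled over the 3 strains, was 1.03. This was at the 99.8th percentile of all genes tested, whose median SD was 0.26. Timp1 had an SD of 0.51 (82.2nd percentile) and Mmp9 of 0.45 (78.2nd). Timp3 at 0.34, Mmp3 at 0.33, Mmp14 at 0.30 and Mmp2 at 0.25 lay between the 47.0th and 66.2nd percentiles. Timp2, read by its leading set, had the smallest SD of the 8, 0.13 (9.10th). Other bright Timp2 sets varied more. Set 1454677_at had SDs of 0.14 in B6C3F1, 0.35 in C3H and 0.23 in C57Bl/6, and set 1460287_at of 0.25, 0.36 and 0.26. In the plot of spread against level, Timp4 lay above nearly all genes of like level.

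**Figure D4:**
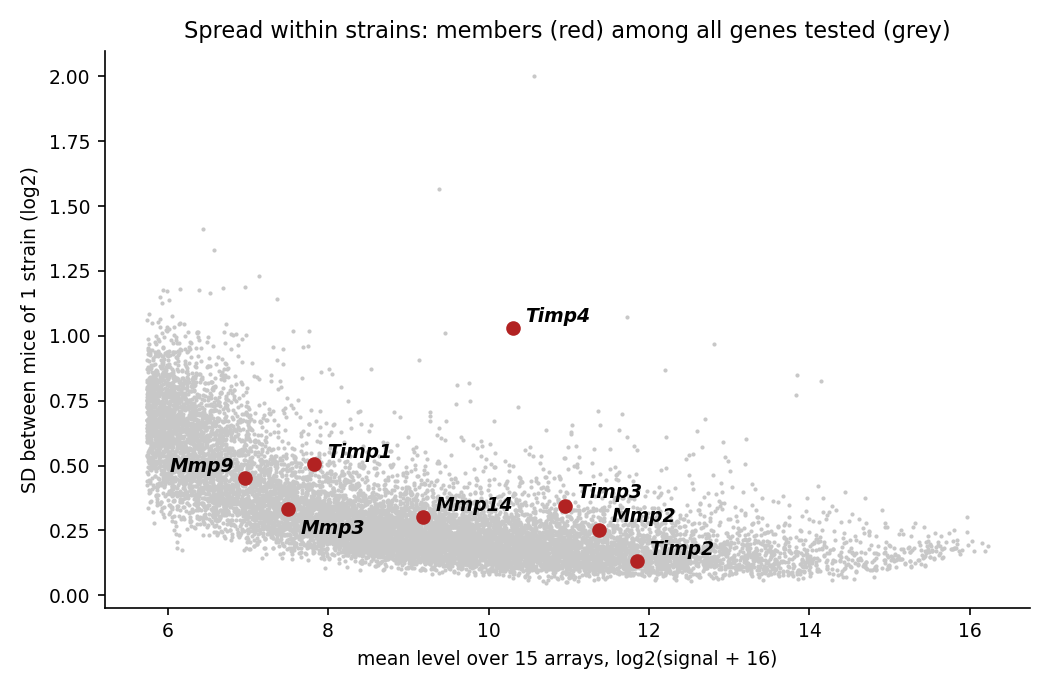
SD between mice of 1 strain (vertical axis, log2, pooled over the 3 strains) against mean level over 15 arrays (horizontal axis, log2(signal + 16)) for all genes tested in grey and the 8 members in red. Timp4, at 1.03, stands far above the other members, which lie between 0.13 and 0.51.

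None of the 4 enzymes passed the threshold in any comparison in limma. Mmp2, Mmp3 and Mmp14 had an unadjusted p under 0.05 in B6C3F1 minus C57Bl/6, as did 20.3% of all genes. Mmp2, a gelatinase that fibroblasts make steadily, read 11.29, 11.28, 11.60, 11.49 and 11.83 on B6C3F1 arrays, 11.54, 11.72, 11.53, 11.10 and 11.39 on C3H arrays and 10.83, 11.46, 11.12, 10.97 and 11.48 on C57Bl/6 arrays (1416136_at). C57Bl/6 replicates 1 and 4 lay below every array of the other groups, and the remaining C57Bl/6 arrays lay inside their range. The difference was 0.28 ± 0.14 (SE) in C3H minus C57Bl/6 (adjusted p = 0.202) and 0.33 ± 0.14 in B6C3F1 minus C57Bl/6 (adjusted p = 0.201). The second Mmp2 set, 1439364_a_at, stood at 0.26 (adjusted p = 0.303) and 0.45 (adjusted p = 0.107) in the same comparisons. With poly-A signal as a covariate, Mmp2 passed in C3H minus C57Bl/6 (0.47, adjusted p = 0.0406), as did Timp2 (0.32, adjusted p = 0.0397).

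Mmp14, the membrane-bound enzyme that activates the Mmp2 precursor, read 9.60, 8.86, 9.69, 9.03 and 9.67 on B6C3F1 arrays (1448383_at). It read 8.97, 9.30, 9.06, 9.09 and 9.47 on C3H arrays and 9.22, 9.23, 8.90, 8.59 and 9.06 on C57Bl/6 arrays. B6C3F1 arrays fell into a higher 3 and a lower 2, and all groups overlapped. The difference was 0.37 in B6C3F1 minus C57Bl/6 (95% interval 0.01 to 0.73, adjusted p = 0.231) and 0.18 in C3H minus C57Bl/6 (-0.18 to 0.54, adjusted p = 0.533). The other tested set, 1416572_at, was noisier, with SDs of 1.01 in B6C3F1, 0.23 in C3H and 0.78 in C57Bl/6, and the set 1440920_at was dim.

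Mmp3, stromelysin, cuts proteoglycans and laminin and activates other metalloproteinases. It read 7.12, 7.07, 7.71, 7.15 and 7.09 on B6C3F1 arrays (7.23 ± 0.27, SD, n = 5), 8.02, 7.48, 7.42, 6.94 and 7.37 on C3H arrays (7.44 ± 0.38) and 8.36, 7.52, 7.68, 7.67 and 7.95 on C57Bl/6 arrays (7.84 ± 0.33). The B6C3F1 and C57Bl/6 arrays overlapped, with B6C3F1 replicate 3, at 7.71, inside the C57Bl/6 range. Mmp3 did not pass in B6C3F1 minus C57Bl/6 with any 1 array left out (lowest adjusted p in limma 0.0714). The difference in B6C3F1 minus C57Bl/6 was -0.61 ± 0.21 (SE), with an adjusted p of 0.110, and in C3H minus C57Bl/6 it was -0.39 (adjusted p = 0.238). Mmp3 lies in a cluster of metalloproteinase genes on chromosome 9, and its nearest neighbours Mmp12, Mmp1b, Mmp1a and Mmp10 were all dim.

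Mmp9 is the gelatinase stored in the granules of neutrophils and released by activated macrophages. Set 1416298_at read 6.76, 7.57, 7.30, 6.65 and 6.52 on B6C3F1 arrays, 6.53, 6.80, 6.72, 7.08 and 6.40 on C3H arrays and 6.76, 6.63, 7.46, 8.08 and 7.20 on C57Bl/6 arrays. C57Bl/6 replicate 4 was the highest array, and the groups overlapped. The difference was -0.52 ± 0.28 (SE) in C3H minus C57Bl/6 (adjusted p = 0.235) and -0.27 in B6C3F1 minus C57Bl/6 (adjusted p = 0.625). Without C57Bl/6 replicate 4 these were -0.30 and -0.05.

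C57Bl/6 replicate 4 was also the brightest array for the dim Mmp9 set 1448291_at, at 6.87, and for the neutrophil-associated genes Mmp8 (7.70), S100a8 (10.68) and S100a9 (10.00). Of 7 neutrophil markers listed, 3 were tested (S100a8, S100a9 and Ngp), while Mpo, Elane and Camp were dim and Ly6g had no probe set with 1 symbol. Unlike S100a8 and S100a9, Ngp was not brightest on C57Bl/6 replicate 4. The summed signal of the 3 was 132 to 644 on B6C3F1 arrays, 270 to 780 on C3H arrays and 286 to 2739 on C57Bl/6 arrays. None of the 3 passed in any comparison, with S100a8 at -1.15 in C3H minus C57Bl/6 (adjusted p = 0.127). The 3 genes most like Mmp9 over the 15 arrays were Pigv (r 0.86), S100a8 (0.84) and Slc2a3 (0.82), named after their values were seen. The part of neutrophils in the Mmp9 values was not tested.

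**Figure D5:**
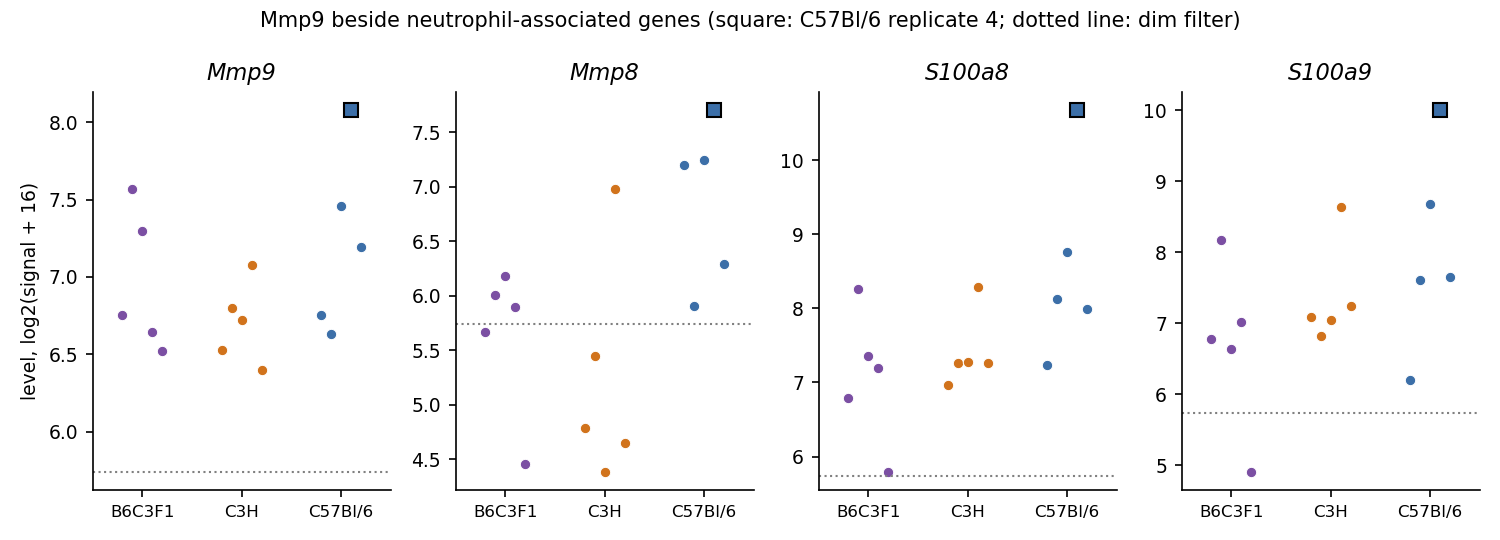
Level as log2(signal + 16) (vertical axis, own scale per panel) of Mmp9, Mmp8, S100a8 and S100a9 on each array of B6C3F1, C3H and C57Bl/6; the square marks C57Bl/6 replicate 4 and the dotted line the dim cut at 5.74. The square is the highest point in all 4 panels, at 8.08 for Mmp9 and 10.68 for S100a8. The tested neutrophil marker Ngp is not shown and was not highest on that array.

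Of 19 other matrix metalloproteinases, 6 were above the dim cut, and 1 was higher (background 7.26%) and 1 lower (background 8.4%) in C3H than in C57Bl/6, with 0 called in the other comparisons. Mmp11, stromelysin 3, was higher by 1.12 ± 0.32 (SE), or 2.18-fold (adjusted p = 0.0204). Mmp8, neutrophil collagenase, was lower (adjusted p = 0.0267), with means of 5.64 in B6C3F1, 5.25 in C3H and 6.87 in C57Bl/6. Both lower means lay under the dim cut, which Mmp8 passed through C57Bl/6, so that the size of the difference is not exact. Mmp16, Mmp17, Mmp23 and Mmp24 did not pass, Mmp17 at -0.89 with an adjusted p of 0.0718. The median of the 6 was 0.12 in C3H minus C57Bl/6, beside -0.02 over all genes.

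Of 20 related ADAM and ADAMTS proteases, several of which Timp3 inhibits, 17 were tested. In C3H minus C57Bl/6, 3 were lower (background 8.4%) and 0 higher. Adamts9, which cuts the proteoglycan versican, was lower by 3.41-fold (-1.77 ± 0.20 SE, adjusted p = 1.82e-06). Adam19 was at -1.15 (adjusted p = 0.000614) and Adamts1 at -0.94 (adjusted p = 0.0089). In B6C3F1 minus C3H, Adamts9 was higher by 1.45 and Adam19 by 1.31, 2 of 17 (background 3.59%), while 0 passed in B6C3F1 minus C57Bl/6. The median of the 17 was -0.11 in C3H minus C57Bl/6, and Adam17, the sheddase that Timp3 blocks, was at -0.05 (adjusted p = 0.839, given for its link to Timp3).

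Of 20 activators, inhibitors and receptors of the system, 15 were tested. In C3H minus C57Bl/6, 3 were lower (background 8.4%) and 0 higher. Itgb3, an integrin subunit, was lower (adjusted p = 2.95e-05), with means of 6.13 in B6C3F1, 4.66 in C3H and 7.05 in C57Bl/6. Its C3H mean lay under the dim cut, which it passed through the other groups, so that the size of its differences is not exact. Plat, tissue plasminogen activator, was at -0.80 and Serpinh1, a collagen chaperone, at -0.77. In B6C3F1 minus C57Bl/6, Serpinf1 was higher by 0.73 (adjusted p = 0.024), 1 of 15 (background 2.06%). In B6C3F1 minus C3H, 4 were higher (background 3.59%), namely Itgb3, Tfpi2 at 0.95, Plat at 0.66 and Sdc1 at 0.61. Thbs2, a matricellular protein, was lower at -0.96, 1 of 15 (background 2.62%). The median of the 15 was -0.03, 0.04 and 0.24 in these 3 comparisons.

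Of 21 matrix substrates, 19 were tested. Between C3H and C57Bl/6, 3 were higher in C3H (background 7.26%) and 0 lower, namely the matricellular protein Sparc (0.75) and the proteoglycans Lum (0.57) and Dcn (0.41). In B6C3F1 minus C57Bl/6, 2 were higher (background 2.06%), Sparc by 1.13 (adjusted p = 0.00933) and Lum by 0.78 (adjusted p = 0.0143). Against C3H, 2 were higher in B6C3F1 (background 3.59%), the basement membrane collagens Col4a1 (0.82) and Col4a2 (0.49). The median of the 19 was -0.02 in C3H minus C57Bl/6, 0.30 in B6C3F1 minus C57Bl/6 and 0.38 in B6C3F1 minus C3H.

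Of 23 listed inducers of Timp and Mmp genes, 18 were tested. In C3H minus C57Bl/6, 4 were higher (background 7.26%) and 1 lower (background 8.4%). Jund, an AP-1 subunit, was higher by 1.09 ± 0.14 (SE), or 2.13-fold (adjusted p = 9.57e-06), and Ets1 (0.72), Junb (0.61) and Stat3 (0.58) were higher too, while Jun was lower (-0.39, adjusted p = 0.0429, named after its value was seen). Jund was the 1 gene of the list that passed in B6C3F1 minus C57Bl/6 (0.52, adjusted p = 0.0396, background 2.06%). Jund was lower in B6C3F1 than in C3H (-0.57, adjusted p = 0.0161), as was Stat3 (-0.33, adjusted p = 0.0355), 2 of 18 (background 2.62%). In none of the 5 pathway lists did a gene pass against the midparent, where 0.633% of all genes did.

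Markers of the cells that could hold these transcripts were read beside them. All 8 fibroblast markers were tested, and 3 were higher in C3H than in C57Bl/6 (background 7.26%), Tcf21 by 0.76, Lum and Dcn. The median of the 8 was 0.13 there, beside -0.02 over all genes. In B6C3F1 minus C3H 0 passed, and the median was -0.09 (0.03 over all genes). In B6C3F1 minus C57Bl/6, 2 were higher (background 2.06%), Tcf21 by 0.52 and Lum. The median of the 8 markers was 0.38 there, beside 0.01 over all genes. Their summed signal was 54142 to 70461 on B6C3F1 arrays, 58155 to 79483 on C3H arrays and 52835 to 72321 on C57Bl/6 arrays. Their mean log2 level was 11.19 to 11.41 on B6C3F1 arrays, 10.89 to 11.38 on C3H arrays and 10.62 to 11.22 on C57Bl/6 arrays. Both measures overlapped between the groups, but the B6C3F1 means lay at the upper end, with 1 C57Bl/6 array inside their range. The 8 cardiomyocyte markers, which include Myh6 and Tnnt2, were bright on every array with mean levels of 15.34 to 15.93, and none passed in limma. Of 7 endothelial markers, 2 were lower in C3H than in C57Bl/6 (background 8.4%), Cdh5 (-0.56) and Cldn5 (-0.66). The list's median was -0.54, beside -0.02 over all genes. Cdh5 was higher in B6C3F1 than in C3H by 0.70 (adjusted p = 0.00666) and Cldn5 by 0.58 (adjusted p = 0.0406, background 3.59%). Of 8 macrophage markers, Cd68 was higher (0.77, background 7.26%) and Adgre1 lower (-0.62, background 8.4%) in C3H minus C57Bl/6. Csf1r was higher in B6C3F1 than in C3H (0.50, background 3.59%).

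Of 4 listed genes of atrial muscle, 3 were tested (Myl4, Myl7 and Nppa), since Sln was dim, and the median was 0.82 in C3H minus C57Bl/6. Their mean log2 level was 9.38 to 9.68 on B6C3F1 arrays, 9.73 to 10.39 on C3H arrays and 9.17 to 9.43 on C57Bl/6 arrays. Every C3H array thus lay above every array of the other groups. Of single genes, 11.2% did not overlap between C3H and C57Bl/6 and 6.4% between C3H and B6C3F1. The summed signal of the 3 overlapped, at 4783 to 15866 in B6C3F1, 6373 to 18440 in C3H and 4837 to 6732 in C57Bl/6. Of the 3, Myl4, the atrial light chain, alone passed, and Myl7 and Nppa did not. Myl4 was higher in C3H than in C57Bl/6 by 1.16 (adjusted p = 5.71e-06, background 7.26%). It was lower in B6C3F1 than in C3H (-0.78, adjusted p = 0.00169, background 2.62%). Of 6 smooth muscle and pericyte markers tested, the pericyte gene Rgs5 alone passed. It was lower in C3H than in C57Bl/6 (-0.40, adjusted p = 0.00134, background 8.4%). It was also higher in B6C3F1 than in C3H (0.36, adjusted p = 0.00859, background 3.59%). Alas2, the 1 red cell gene tested, was lower in C3H than in C57Bl/6 (-0.79, adjusted p = 0.0157, background 8.4%). Adipocyte markers gave 0 tested genes of 5 listed. The part of cell makeup in the Timp1 and Timp3 differences was not tested.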

How the data were processed

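RNA of heart apex from 15 male mice (5 per strain) was measured on Affymetrix arrays. The deposited values are log2 values; the submitters' processing notes name MAS5, with no version, and the log2 scale and common scaling were read from the values. Here the values were returned to linear scale, 16 was added and log2 taken. The table has 45096 probe sets, of which 64 are controls, 932 have several symbols and 9160 none; these were not tested. A gene took its probe set of highest mean, and means below the 40th percentile (5.74) were dim and left out. limma 3.58.1 in R 4.3.3 (eBayes with an intensity trend) fitted all 15 arrays, with Benjamini-Hochberg adjustment over 13107 genes, or 23037 probe sets. The procedure was tested on simulated data. Names came from the platform annotation, and upstream sequences from the RefSeq table of GRCm38.p6.

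The members and lists were chosen with earlier results of these data known. The text names every member, up to 4 passing genes per pathway list with the largest differences, and cell markers beside a result. It also names the 3 genes most like each member that passed, and those most like Mmp9. Syn1, Syn2, Syn3 and Pparg are named by position, and Adam17 by its known link. The labels give each array its own mouse. Alternatives covered the pseudocount, the dim cut, scaling, choice of probe set, trend, arrays fitted, the replicate number, control signals as covariates and each array left out.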

Additional observations from a re-analysis of the deposited data

Results flagged for a closer look

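Each probe set of each strain was checked for an array far from the other 4, by the gap to its neighbour over the whole range. Of 63 such groups, 4 stood out, where chance gives about 1 in 20 (3.15 here). C3H replicate 4 read 11.66 for Timp2 set 1433662_s_at, below the other C3H arrays at 11.96 to 12.07, and without it Timp2 passed in C3H minus C57Bl/6. B6C3F1 replicate 5 read 9.04 for Timp3 set 1449334_at, above the others at 8.10 to 8.32. B6C3F1 replicate 2 read 8.19 for Timp4 set 1450974_at, above the others at 7.45 to 7.55. B6C3F1 replicate 3 read 7.71 for Mmp3 set 1418945_at, above the others at 7.07 to 7.15.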

How the results depend on the processing

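Timp1 in C3H minus C57Bl/6 passed under all 29 other settings (0.83 to 1.31). Timp3 passed under 28 of them in C3H minus C57Bl/6 (1.08 to 1.32) and in B6C3F1 minus C3H (-1.10 to -0.85), and in neither with the mean of a gene's probe sets, which was added after the data were seen. The number of members past the threshold in C3H minus C57Bl/6 was 2, 4 with poly-A signal as a covariate, 1 with the mean of probe sets, and 2 to 3 with each array left out. In B6C3F1 minus C57Bl/6 it was 1, 0 without a dim filter (Timp1 adjusted p = 0.0555) or without an intensity trend (0.0784), and 0 to 1 with each array left out. In B6C3F1 minus C3H it was 1, and 0 with the mean of probe sets. Against the midparent it was 0 under every alternative, of which the fit of only the strains compared could not be run.

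Differences near 0 that did not pass changed sign. For Mmp2 in B6C3F1 minus C3H these were -0.0287 (median centring) and -0.14 (poly-A covariate), and with arrays left out the range was -0.0476 to 0.11. For Timp2 in B6C3F1 minus C3H they were 0.17 (no _s or _x sets), 0.0724 (Gapdh ratio) and 0.081 (mean of sets), and for Timp3 in B6C3F1 minus C57Bl/6 -0.00266 (mean of sets). With arrays left out, Timp1 in B6C3F1 minus C3H ran from -0.21 to 0.0532, Mmp9 against the midparent from -0.16 to 0.10 and Timp4 against it from -0.0458 to 0.41. Mmp9 against the midparent was 0.0551 with the poly-A covariate and Timp4 -0.00668 with the Gapdh ratio.

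The replicate numbers follow the order of the samples within each strain, so that they cannot show whether arrays were paired. Same-numbered arrays had correlations of -0.06 to 0.13, with 2 of 15 pairs over 0.1. With the replicate number as a block the counts were 2, 1, 1 and 0, Timp1 stood at adjusted p 0.00223 in C3H minus C57Bl/6 and 0.0116 in B6C3F1 minus C57Bl/6, and Timp3 at 0.00039 and 0.00604.

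Over all genes, 2052 passed in C3H minus C57Bl/6, 46.3% of them higher, against 67.2% with median centring. In B6C3F1 minus C57Bl/6, 502 passed (53.8% higher), against 315 with centring (67.6%), 304 with no trend and 268 to 826 with arrays left out. In B6C3F1 minus C3H, 813 passed (57.8% higher), against 674 with centring (39.5%) and 390 with the poly-A covariate. Against the midparent, 83 passed, against 52 with no trend, 46 with the poly-A covariate and 41 to 212 with arrays left out. Tested singly, 3147 and 132 probe sets passed in the first and last of these.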
